A study of Mus musculus with 16 samples.

Results

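The interferon-stimulated genes (ISGs) described here are 45 listed genes whose transcription is known to be raised by interferons, and all 45 were found by gene symbol among the 9614 genes of the deposited table. They were chosen by name. As background, macrophages that sense lipopolysaccharide (LPS), a component of the outer membrane of Gram-negative bacteria, through the receptor TLR4 activate NF-kB and, through the adaptor TRIF, the factor IRF3, which switches on Ifnb1, the gene of interferon beta, and a few ISGs directly. Secreted interferon then acts through its receptor and the kinases JAK1 and TYK2 on transcription factors that bind the interferon-stimulated response element (ISRE) in most ISG promoters, so that a large part of the ISG response follows in a later wave. Glucocorticoids such as dexamethasone (Dex) act through the glucocorticoid receptor, which represses many LPS-induced genes. The members were sorted by role into 12 antiviral effectors, 10 genes of ISG15 conjugation, ubiquitin and ADP-ribosylation, 6 nucleic acid sensors, 7 interferon-inducible GTPases, 4 genes of nuclear bodies and of STAT and IRF interaction, the antigen transporter gene Tap1 and 5 others.

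The 16 RNA-seq libraries came from macrophages grown out of bone marrow (BMDM) of 6 male C57BL/6 mice aged 8 weeks. Of these 3 carried unaltered NELF-B alleles (LysM-Cre:NELF-B wt/wt), called WT, and 3 carried loxP-flanked ones (LysM-Cre:NELF-B fl/fl), called NELF-B KO. Both genotypes thus carry the LysM-Cre transgene, which is active in myeloid cells, and the KO lacks NELF-B, a subunit of the complex that holds RNA polymerase II paused near promoters, only as far as Cre acted. Cells were untreated (mice A and B of each genotype), given LPS alone (10 ng/ml) or LPS together with Dex (100 nM), each for 1 hr (mice A, B and C), and no untreated library of a mouse C was analysed here. A mouse letter names an animal within its genotype. The labels print the same run string for the untreated library of WT mouse B and for every library of KO mouse B. The LPS and LPS + Dex labels of WT mouse B print no run string and are tied to that animal by mouse number only. Labels of the mice called C print strings alike in form, while the mice called A share none, so letter A is no batch known from the labels.

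The reads recovered for the genes of the table summed to 25000000 to 49700000 per library (median 34200000). Under the authors' scaling 3 reads correspond to 0.0653 to 0.136 CPM, the reads of a gene per scaled library size. Member values ran from 0.04 to 10.53 log2 CPM. Nelfb, the targeted gene, was 6.21 and 5.92 log2 CPM in the untreated, 5.66, 5.76 and 5.59 in the LPS and 5.68, 5.73 and 5.64 in the LPS + Dex libraries of the WT. In the KO it was 3.53 and 4.38 untreated, 3.27, 4.21 and 3.48 with LPS and 3.28, 4.22 and 3.53 with LPS + Dex. The genotypes did not overlap, although the KO minus WT difference of -2.02 (SE 0.23, adjusted p = 0.105) log2 with LPS was not called. The summed level of 9 of 10 listed macrophage marker symbols ran from 13.05 to 13.85 log2 CPM over the 16 libraries. The symbol not found, Adgre1, is another name of Emr1, which was found. Lyz2, the gene that drives LysM-Cre, ran from 4.30 to 6.33. Within each treatment every KO library was above every WT library in Lyz2. Its KO minus WT differences were 0.94 log2 untreated, 1.16 with LPS and 1.3 with LPS + Dex, and none was called. Of the listed markers of other cells, 1 of 6 for neutrophils and progenitors (S100a8, 2.45 to 5.38 log2 CPM), 1 of 5 for T cells (Cd4, 2.37 to 5.89), 1 of 4 for B cells (Cd79b, 3.74 to 5.31), 4 of 4 for fibroblasts (summed 5.62 to 7.18) and 1 of 3 for endothelium (Pecam1, 3.98 to 6.21) were in the table, and none of those for NK, dendritic, mast or erythroid cells. The untreated library of WT mouse A stood apart, with r across genes of 0.83 to 0.909 with the other 15 libraries, against 0.924 to 0.993 among those 15. In such bulk samples, more cells of a responding type and more RNA per cell cannot be told apart.

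Promoter sequences from RefSeq (GRCm38, 250 bases before to 50 after each start) were matched for 37 of the 45 members. The core of the ISRE, spelled GAAANNGAAA and searched on both strands, was found in 17 of the 37 members (45.9%) and in 291 of 7399 genes of the table with a promoter (3.9%). The gamma-activated site, TTCNNNGAA, an element of interferon gamma responses, was found in 10 members (27.0%) and in 8.3% of genes, and the NF-kB consensus in 4 members (10.8%) and 8.4% of genes. The palindromic consensus of the glucocorticoid response element was found in 0 of the 37 members and in 1 of the 7399 genes. Of the 8 members called higher with LPS in the comparisons that follow, 7 held the ISRE core (Gbp2, Gbp3, Gbp5, Ifih1, Ifit1, Isg15 and Rsad2), and the other, Oasl1, held overlapping NF-kB matches. Of the 37 members not called, 29 had a promoter and 10 of these held the ISRE core. ISRE core matches overlapped each other in Isg15, Gbp3, Trim21, Bst2 and Irgm1, a gamma-activated site overlapped an ISRE core in Bst2, and a gamma-activated site overlapped the NF-kB match in Ifit2. The sequences below are those of 6 of the LPS-called members and, for comparison, of Ifit3, which held the ISRE core but was not called with LPS. Each runs from position -180 to position 19, with the start base counted as 0, and capitals mark matches to the ISRE core on either strand and, in Gbp5 and Oasl1, to the NF-kB consensus.
Gbp5 (chr3:142496754-142496953, plus strand): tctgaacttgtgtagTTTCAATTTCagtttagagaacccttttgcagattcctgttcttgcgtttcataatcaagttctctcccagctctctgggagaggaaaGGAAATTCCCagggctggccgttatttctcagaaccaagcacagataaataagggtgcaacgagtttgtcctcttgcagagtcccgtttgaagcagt
Oasl1 (chr5:114923060-114923259, plus strand): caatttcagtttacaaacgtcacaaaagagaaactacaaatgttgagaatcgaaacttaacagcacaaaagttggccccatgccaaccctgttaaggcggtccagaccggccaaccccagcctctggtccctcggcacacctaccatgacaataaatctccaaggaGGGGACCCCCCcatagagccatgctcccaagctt
Ifit1 (chr19:34640709-34640908, plus strand): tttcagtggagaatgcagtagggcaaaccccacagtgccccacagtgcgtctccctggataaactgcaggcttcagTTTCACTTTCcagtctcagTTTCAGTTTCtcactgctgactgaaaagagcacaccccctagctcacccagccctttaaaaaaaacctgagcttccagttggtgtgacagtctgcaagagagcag
Rsad2 (chr12:26456433-26456632, minus strand): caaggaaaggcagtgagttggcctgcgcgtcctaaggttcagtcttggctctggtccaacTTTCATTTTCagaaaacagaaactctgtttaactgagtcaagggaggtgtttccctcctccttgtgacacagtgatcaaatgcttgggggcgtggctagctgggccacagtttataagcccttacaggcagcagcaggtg
Isg15 (chr4:156200799-156200998, minus strand): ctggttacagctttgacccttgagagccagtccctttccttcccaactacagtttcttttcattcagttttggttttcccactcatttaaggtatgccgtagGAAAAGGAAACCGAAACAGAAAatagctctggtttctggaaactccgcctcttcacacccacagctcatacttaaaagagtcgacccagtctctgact
Gbp2 (chr3:142620483-142620682, plus strand): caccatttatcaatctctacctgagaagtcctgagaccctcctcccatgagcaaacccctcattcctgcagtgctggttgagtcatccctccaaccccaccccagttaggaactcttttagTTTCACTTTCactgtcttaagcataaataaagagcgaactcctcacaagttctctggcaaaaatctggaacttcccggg
Ifit3 (chr19:34583349-34583548, plus strand): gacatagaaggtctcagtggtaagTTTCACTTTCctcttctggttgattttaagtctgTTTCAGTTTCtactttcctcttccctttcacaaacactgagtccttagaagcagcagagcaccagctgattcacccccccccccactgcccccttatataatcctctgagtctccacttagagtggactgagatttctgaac

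In Isg15 the 3 ISRE core matches began at positions -78, -72 and -66 and ran into each other, and in Ifit1 and Ifit3 a pair of separate matches was present. In Gbp5 the ISRE core began at position -165 and the NF-kB match at position -77. The ISRE core of Ifih1 began at position 32 and lies outside the length printed. A match of letters is a description of the sequence and shows neither binding nor use of the site.

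ISGs differed widely in their level before stimulation, and the untreated library of WT mouse A held the extremes of many of them. On the log2 CPM scale the highest untreated member was Lgals3bp, which encodes a secreted galectin-binding glycoprotein, at 9.76 and 9.86 in the WT and 10.26 and 9.73 in the KO (mice A and B of each). The lowest was Gbp5, a guanylate-binding protein of inflammasome activation, at 1.23 and 1.64 in the WT and 1.87 and 2.02 in the KO. Per kilobase of exon, the highest untreated level was that of Bst2, which encodes the virus-tethering protein tetherin (8.91 log2 CPM per kb), and the lowest again that of Gbp5 (-1.01). Lgals3bp followed at 8.41 log2 CPM per kb, and the untreated values of Bst2 (9.72 and 8.15 in the WT and 8.41 and 8.08 in the KO) were uneven, with WT mouse A above the other 3 libraries. Of the 45 members, 32 were lowest and 10 were highest in WT mouse A among the 4 untreated libraries, where 43.6% of all genes were lowest and 42.3% highest. Igtp and Gbp7, interferon-inducible GTPases that act on vacuoles of intracellular pathogens, were 0.04 and 0.16 log2 CPM in that library and at least 2.48 and 1.63 in the other 3. Every LPS comparison in the WT therefore rests in part on this library.

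**Figure D1:**
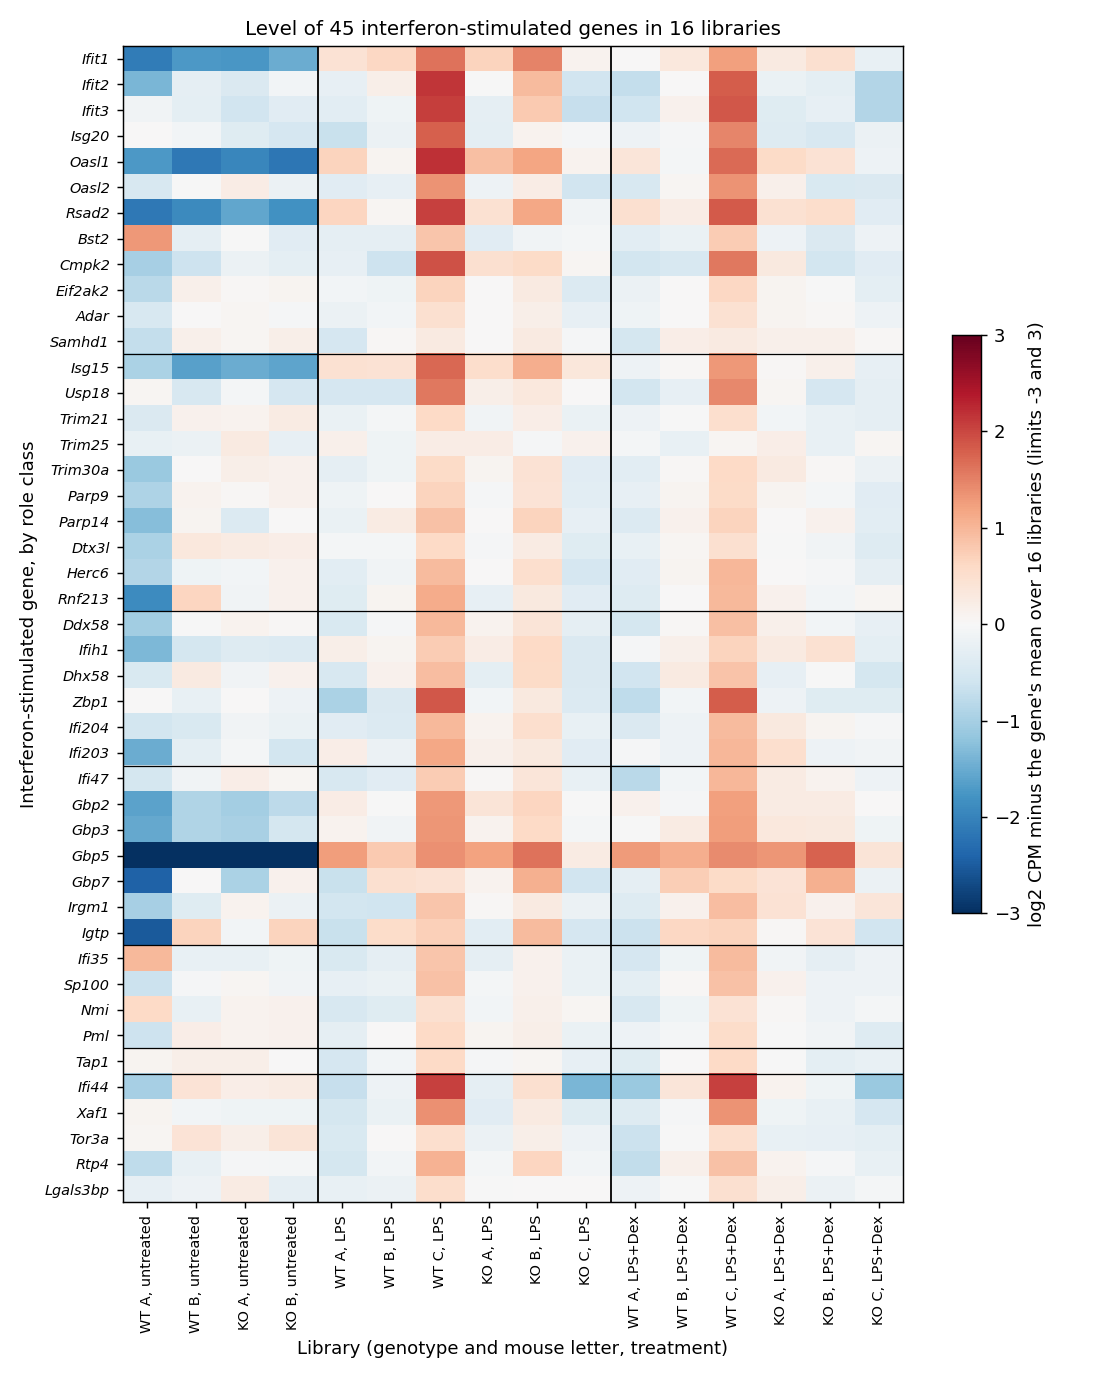
Each row is an ISG and each column a library, ordered by treatment, genotype and mouse letter. The colour is log2 CPM minus the gene's mean over the 16 libraries. The LPS and LPS + Dex columns of WT mouse C lie above the mean for all 45 members, while the untreated column of WT mouse A lies below it for most of them.

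The 1 hr LPS comparison asked which ISGs respond within the first hour and whether that differs without NELF-B. In the WT, 8 of the 45 members rose over 1.5-fold at an FDR under 0.1 and 0 fell, where 6.01% of all 9614 genes were called higher and 3.14% lower. In the KO, 5 of the 45 rose and 0 fell, with 3.08% of all genes higher and 1.24% lower. All 5 members called in the KO (Gbp5, Oasl1, Ifit1, Isg15 and Rsad2) were among the 8 of the WT, which also held Gbp2, Gbp3 and Ifih1. No member fell at an unadjusted p under 0.05 in limma in either genotype, or in voom on recovered reads at the thresholds above. The median log2 change of the members was 0.58 in the WT, against 0.016 for all genes, and 0.01 in the KO, against -0.005. In the mice that had both libraries, the median was 0.41 in WT mouse A, -0.05 in WT mouse B, -0.05 in KO mouse A and 0.38 in KO mouse B, so most ISGs had no rise shared by the mice. The fit that gave the calls above held no term for the mouse, so libraries of the same animal counted as independent. With the mouse as a replicate block 12 members rose and 2 fell in the WT and 8 rose in the KO, and the WT median was 0.21. The share of all genes called with that block is not given here, so its counts cannot be read as particular to ISGs. Without the untreated library of WT mouse A, which leaves that of mouse B alone, the WT median member change was 0.26. The log2 fold changes were then 4.62 for Gbp5, 3.13 for Oasl1, 2.83 for Rsad2, 2.63 for Ifit1 and 2.5 for Isg15. Without that of WT mouse B, which leaves mouse A alone, the WT median was 0.90. The KO calls of Oasl1, Rsad2 and Isg15 were lost without the untreated library of KO mouse B. With each library centred on its median gene, the genes called in the WT were 481 higher and 536 lower in place of 578 and 302, while the counts of members were 8 and 0 as before.

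Among the interferon-inducible GTPases, Gbp5 had the largest rise of all members. It was 1.23 and 1.64 log2 CPM in the untreated WT libraries (mice A and B) and 6.37, 5.92 and 6.50 in those with LPS (mice A, B and C). In the KO it was 1.87 and 2.02 untreated and 6.32, 6.75 and 5.38 with LPS, so every LPS library was above every untreated library by more than 3 log2 units. The mean rose from 1.43 ± 0.29 (SD, n = 2) to 6.26 ± 0.31 (SD, n = 3) in the WT, a log2 fold change of 4.83 (SE 0.39, adjusted p = 3.28e-06), and the log2 fold change in the KO was 4.20 (SE 0.39, adjusted p = 1.12e-05). Gbp2, a related guanylate-binding protein, was 3.69 and 4.40 untreated and 5.53, 5.28 and 6.61 with LPS in the WT, and 4.28 and 4.52 and 5.69, 5.95 and 5.30 in the KO. Gbp3, its neighbour on chromosome 3, was 2.53 and 3.16 and 4.19, 3.96 and 5.40 in the WT and 3.11 and 3.55 and 4.18, 4.68 and 4.01 in the KO. For both genes all LPS libraries were above all untreated libraries of their genotype. Their log2 fold changes in the WT were 1.76 (SE 0.41, adjusted p = 0.0193) for Gbp2 and 1.67 (SE 0.43, adjusted p = 0.0351) for Gbp3. In the KO the values were 1.25 (SE 0.41, adjusted p = 0.16) and 0.96 (SE 0.43, adjusted p = 0.517), which missed the FDR. Both calls in the WT were lost with mice A and B only and without the untreated library of mouse A, and that of Gbp3 also without the LPS library of mouse C. The other 4 GTPases, Gbp7, Irgm1, Igtp and Ifi47, were not called, and the log2 changes of the class ran from 0.29 to 4.83 in the WT and from -0.26 to 4.20 in the KO. Guanylate-binding proteins form a cluster of similar genes, so unique reads may undercount them.

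Of the 12 antiviral effectors, Oasl1, Ifit1 and Rsad2 rose in both genotypes. Oasl1, an oligoadenylate synthetase-like protein without synthetase activity, was 4.38 and 3.96 log2 CPM untreated and 6.77, 6.20 and 8.29 with LPS in the WT, and 4.16 and 3.94 and 7.02, 7.29 and 6.21 in the KO. Its log2 fold changes were 2.92 (SE 0.57, adjusted p = 0.00687) in the WT and 2.79 (SE 0.57, adjusted p = 0.0106) in the KO. Ifit1, which binds viral RNA that lacks the methylated cap of host mRNA, was 5.24 and 5.60 and 7.76, 7.96 and 8.96 in the WT, and 5.58 and 5.85 and 8.00, 8.83 and 7.43 in the KO. It rose from 5.42 ± 0.25 (SD, n = 2) to 8.23 ± 0.64 (SD, n = 3) in the WT, with log2 fold changes of 2.80 (SE 0.45, adjusted p = 0.00133) in the WT and 2.37 (SE 0.45, adjusted p = 0.00572) in the KO. For both genes the untreated and LPS values did not overlap in either genotype. Rsad2, which encodes viperin, the enzyme of an antiviral nucleotide, was 5.45 and 5.68 untreated and 8.23, 7.64 and 9.64 with LPS in the WT. In the KO it was 6.03 and 5.77 untreated and 8.05, 8.75 and 7.48 with LPS, again with no overlap. The log2 fold changes of Rsad2 were 2.94 (SE 0.57, adjusted p = 0.00625) and 2.19 (SE 0.57, adjusted p = 0.051), and the KO call was lost without the untreated or the LPS library of KO mouse A, and without either of KO mouse B. Cmpk2, a nucleotide kinase gene that lies beside Rsad2 on chromosome 12, was 4.28 and 4.67 untreated and 5.03, 4.65 and 7.20 with LPS in the WT, so the LPS library of mouse C was more than 2 log2 units above those of mice A and B. Its log2 changes, 1.15 (SE 0.69, adjusted p = 0.275) in the WT and 0.60 (SE 0.69, adjusted p = 1) in the KO, were not called. Ifit2 and Ifit3, partners of Ifit1 on chromosome 19, likewise missed the threshold in the WT, with log2 changes of 1.51 (SE 0.76, adjusted p = 0.206) and 0.73 (SE 0.73, adjusted p = 0.504). The changes of the class ran from -0.42 to 2.94 in the WT and from -0.19 to 2.79 in the KO, with medians of 0.61 and 0.36.

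Isg15, a ubiquitin-like protein that is joined to other proteins, was the only member of its class of 10 that rose. It was 5.34 and 4.66 log2 CPM untreated and 6.74, 6.72 and 8.02 with LPS in the WT, and 4.80 and 4.70 untreated and 6.82, 7.39 and 6.64 with LPS in the KO. WT mouse A was the highest untreated library and WT mouse C the highest LPS library, and the treatments did not overlap. The log2 fold changes were 2.16 (SE 0.44, adjusted p = 0.00928) in the WT and 2.20 (SE 0.44, adjusted p = 0.00949) in the KO, and the KO calls of Isg15 and Oasl1 were lost without the untreated library of KO mouse B. Usp18, the protease that removes ISG15, was not called. In the WT it was 5.28 and 4.72 untreated and 4.71, 4.71 and 6.79 with LPS, a log2 change of 0.40 (SE 0.61, adjusted p = 0.669). In the KO it was 5.145 and 4.709 untreated and 5.386, 5.519 and 5.214 with LPS, without overlap, a log2 change of 0.45 (SE 0.61). Of the 6 sensors only Ifih1, which encodes the double-stranded RNA sensor MDA5, was called, at 5.09 and 5.92 untreated and 6.60, 6.52 and 7.20 with LPS in the WT. In the KO it was 6.04 and 6.02 untreated and 6.66, 7.04 and 6.01 with LPS, where mouse C with LPS was level with the untreated cells. Its log2 change was 1.27 (SE 0.34, adjusted p = 0.0433) in the WT and 0.54 (SE 0.34, adjusted p = 0.975) in the KO, and the WT call was lost with mice A and B only, without the untreated library of mouse A and without mouse C. The genes of nuclear bodies and STAT and IRF interaction (Pml, Sp100, Nmi and Ifi35), Tap1 and the 5 others had 0 calls in either genotype, with log2 changes of -0.34 to 0.69 in the WT and -0.61 to 0.22 in the KO.

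**Figure D2:**
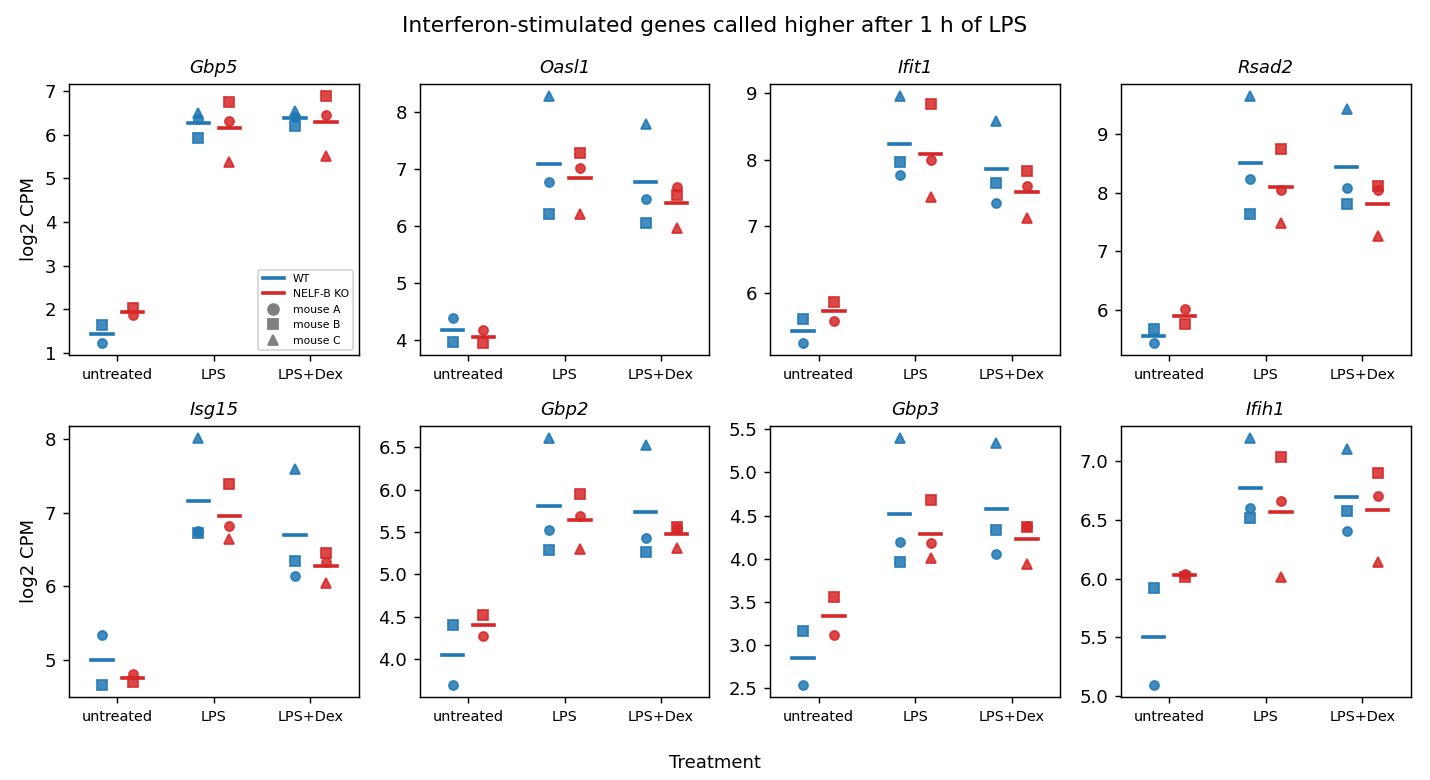
Each panel shows 1 of the 8 members called higher with LPS, with log2 CPM on the y axis and treatment on the x axis. Points are libraries, with their shape giving the mouse letter and their colour the genotype, and bars are group means. The untreated libraries lie lowest in every panel except for KO mouse C in that of Ifih1, and WT mouse C is the highest LPS library in all panels except that of Gbp5.

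The difference in the LPS change between genotypes was tested as an interaction in the LPS fit, which held no term for the mouse. Of the 45 members 0 passed an FDR of 0.1 in limma (0.0% of all genes), and 0 had an unadjusted p under 0.05, with 0 also in voom on recovered reads. The members' median interaction was -0.47 on the log2 scale (KO minus WT) against -0.034 for all genes, and 6 of 45 were above 0. The 0 at that FDR did not hold without the untreated library of WT mouse B. That setting leaves WT mouse A as the only untreated WT library, so no count is given for it. For Rsad2 and Gbp5 the interaction was -0.75 (SE 0.81, adjusted p = 0.717) and -0.63 (SE 0.56, adjusted p = 0.69).

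With Dex added for the same hour, Isg15 was called lower in both genotypes. The Ifit genes and a few other members were called lower in the KO only, and the rest were not called. These KO calls other than Isg15 were lost without either library of KO mouse B. The Dex change was not called different between genotypes for any member. With the mouse as a block, 1 of 45 members fell over 1.3-fold at an FDR under 0.1 in the WT (Isg15) and 0 rose, where 2.17% of all genes were called lower and 2.38% higher. In the KO 7 members fell and 0 rose, where 2.55% of all genes were lower and 2.77% higher. The 7 were Isg15, Ifit1, Ifit2, Ifit3, Oasl1, Cmpk2 and Usp18, so 5 are antiviral effectors and the other pair belongs to ISG15 conjugation. For the 0 that rose, 3 members in each genotype were higher at an unadjusted p under 0.05 in limma, and voom on recovered reads gave 0 as well. Without the block 0 members fell in either genotype, since the spread between mice then enters the test. Leaving out either the LPS or the LPS + Dex library of KO mouse B gave 1 member lower and 2 higher in the KO, and leaving out either library of WT mouse B gave 3 lower in the WT. With all 16 libraries and the block, 0 fell in the WT and 1 in the KO.

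Isg15 was lower with Dex in every mouse. It went from 6.74, 6.72 and 8.02 to 6.14, 6.34 and 7.59 log2 CPM in the WT (mice A, B and C), and from 6.82, 7.39 and 6.64 to 6.33, 6.45 and 6.04 in the KO. The log2 change was -0.47 (SE 0.07, adjusted p = 0.000417) in the WT and -0.68 (SE 0.07, adjusted p = 1.57e-05) in the KO. On the linear CPM scale, 45% and 69.4% of the rise with LPS was left under LPS + Dex in mice A and B of the WT, and 61.7% and 43.2% in those of the KO. Ifit1 went from 7.76, 7.96 and 8.96 to 7.34, 7.65 and 8.57 in the WT and from 8.00, 8.83 and 7.43 to 7.60, 7.82 and 7.11 in the KO. It was lower in all 6 mice, with log2 changes of -0.37 (SE 0.09, adjusted p = 0.0234) in the WT, just short of 1.3-fold, and -0.57 (SE 0.09, adjusted p = 0.000897) in the KO. Oasl1 was also lower in all 6 mice, from 6.77, 6.20 and 8.29 to 6.48, 6.06 and 7.80 in the WT and from 7.02, 7.29 and 6.21 to 6.69, 6.55 and 5.97 in the KO. Its changes were -0.31 (SE 0.08, adjusted p = 0.0262) in the WT, short of 1.3-fold, and -0.44 (SE 0.08, adjusted p = 0.00212) in the KO.

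Ifit2, whose product restrains translation of viral RNA, went from 6.37, 6.78 and 8.74 to 5.88, 6.62 and 8.43 in the WT and from 6.59, 7.56 and 6.03 to 6.41, 6.30 and 5.72 in the KO. All 6 mice were lower, with log2 changes of -1.25 in KO mouse B and of -0.18 and -0.31 in the other KO mice. The log2 change was -0.32 (SE 0.15, adjusted p = 0.265) in the WT and -0.58 (SE 0.15, adjusted p = 0.0177) in the KO. Ifit3 went from 5.70, 5.89 and 8.09 to 5.42, 6.14 and 7.88 in the WT and from 5.75, 6.80 and 5.33 to 5.67, 5.78 and 5.14 in the KO, with KO mouse B again the largest step. Its change was -0.08 (SE 0.14, adjusted p = 0.885) in the WT and -0.43 (SE 0.14, adjusted p = 0.0665) in the KO. Cmpk2 in the KO went from 5.75, 5.84 and 5.34 to 5.57, 4.72 and 4.95, a change of -0.57 (SE 0.14, adjusted p = 0.0134), and in the WT from 5.03, 4.65 and 7.20 to 4.73, 4.79 and 6.87, a change of -0.16 (SE 0.14, adjusted p = 0.658). Usp18 went from 5.39, 5.52 and 5.21 to 5.26, 4.72 and 4.95 in the KO, a change of -0.39 (SE 0.10, adjusted p = 0.0224), and from 4.71, 4.71 and 6.79 to 4.67, 4.96 and 6.67 in the WT, a change of 0.03 (SE 0.10, adjusted p = 0.943). For Ifit1, Ifit2, Ifit3, Cmpk2, Oasl1 and Usp18 the KO call was lost without either library of KO mouse B, while that of Isg15 was kept there. With all 16 libraries and the block, by contrast, the KO call of Isg15 was lost and the member still called was Ifit1.

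Not all LPS-called ISGs were lower with Dex. Gbp5 was 6.40, 6.21 and 6.54 with LPS + Dex in the WT and 6.45, 6.89 and 5.52 in the KO, and it was above its LPS level in each of the 6 mice, with changes of 0.12 (SE 0.05, adjusted p = 0.189) and 0.13 (SE 0.05, adjusted p = 0.0983). In mice A and B, 102% to 124% of its LPS rise on the linear CPM scale was left. Gbp2 was 5.43, 5.27 and 6.53 in the WT and 5.55, 5.56 and 5.31 in the KO with LPS + Dex, with changes of -0.06 (SE 0.06, adjusted p = 0.692) and -0.17 (SE 0.06, adjusted p = 0.0871). Gbp3 was 4.05, 4.33 and 5.34 in the WT and 4.38, 4.37 and 3.94 in the KO, and its changes were 0.06 (SE 0.10, adjusted p = 0.875) and -0.06 (SE 0.10, adjusted p = 0.771). None of these 3 GTPases passed 1.3-fold in either direction. Rsad2 was 8.07, 7.81 and 9.43 in the WT and 8.05, 8.12 and 7.26 in the KO, with changes of -0.07 (SE 0.09, adjusted p = 0.826) and -0.28 (SE 0.09, adjusted p = 0.0695). Ifih1 was 6.41, 6.58 and 7.11 in the WT and 6.71, 6.90 and 6.14 in the KO, with changes of -0.08 (SE 0.05, adjusted p = 0.575) and 0.01 (SE 0.05, adjusted p = 0.932). Rsad2 and Ifih1 moved both ways among the mice and were not called.

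Across the list, the direction of the Dex change was not shared by the mice. The median member change was -0.08, 0.14 and -0.06 log2 in the WT and 0.07, -0.43 and -0.02 in the KO, each in the order A, B, C, while the median of all genes was within 0.011 of 0 in each mouse. In KO mouse B 44 of 45 members were lower with Dex, and in WT mouse B 35 of 45 were higher. KO mouse B had been the highest of the 3 KO mice with LPS for 42 of 45 members (36.8% of all genes) and was the highest with LPS + Dex for 11 of 45 (39.4%). In the WT 9 members were lower in 3 of 3 mice, where 22.1% of all genes were, and in the KO 11 were, where 22.4% of all genes were, so the share of members lower in every mouse was near that of all genes. Isg15, Ifit1, Ifit2, Oasl1, Tor3a and Trim25 were lower in 6 of 6 mice, as were 10.4% of all genes. As a test of the difference between genotypes, the Dex interaction passed an FDR of 0.1 for 0 members in limma, where 0.0208% of all genes were called. Voom on recovered reads gave 0 members at that FDR as well. At an unadjusted p under 0.05 in limma there were 3 of 45 members and 669 of 9614 genes, so the share of members was near that of all genes. The 3 members, Usp18, Pml and Zbp1, had the more negative change in the KO. Their largest KO change was in mouse B (-0.8, -0.29 and -0.65 log2). For Isg15 the interaction was -0.21 (SE 0.10, adjusted p = 0.721) and for Ifit2 it was -0.26 (SE 0.21, adjusted p = 0.823).

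**Figure D3:**
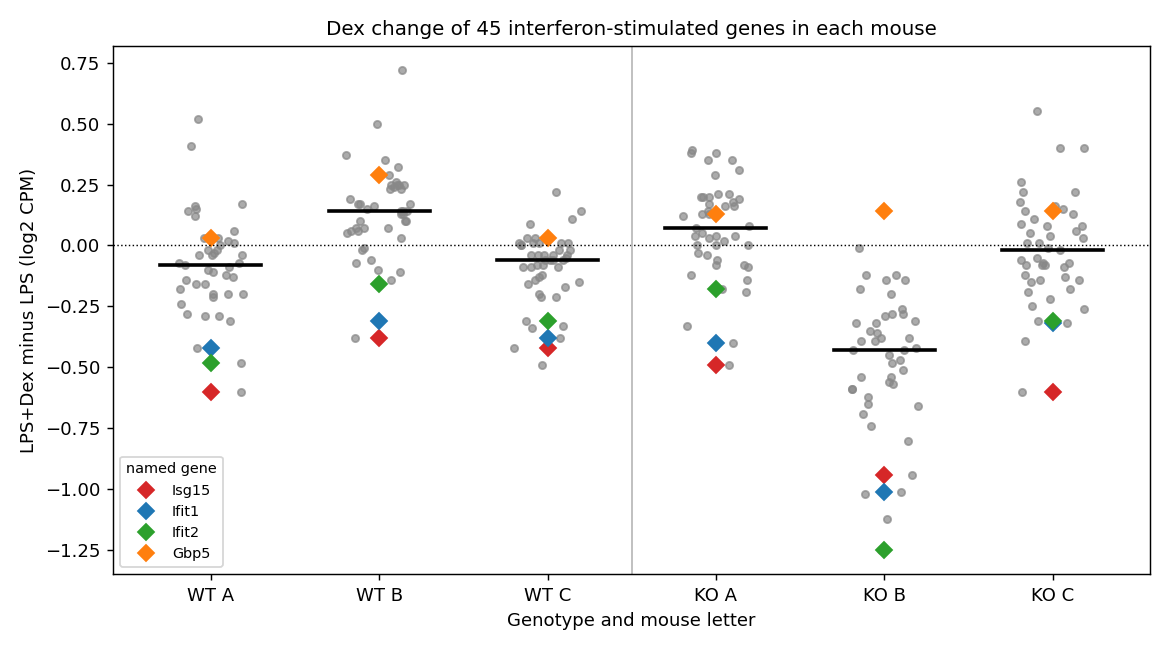
Points are the 45 ISGs, with LPS + Dex minus LPS in log2 CPM on the y axis and the mouse on the x axis. Bars are medians over the members and diamonds mark Isg15, Ifit1, Ifit2 and Gbp5. Isg15, Ifit1 and Ifit2 lie below 0 in all 6 mice and Gbp5 above it, while the cloud of members is lowest in KO mouse B.

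The comparison of genotypes asked whether the loss of NELF-B alters ISG levels within a treatment. At an FDR under 0.05 and over 1.5-fold, 0 of 45 members differed in untreated cells (0.0% of all genes called), 0 with LPS (0.0%) and 0 with LPS + Dex (0.0%) in limma. At an unadjusted p under 0.05 the number of members was 0 in each treatment too, and voom on recovered reads and a block on the mouse letter gave 0 as well. With 2 or 3 mice a group, a difference that misses these thresholds is not shown to be absent. Among untreated libraries 11 members were higher in both KO mice than in both WT mice and 3 were lower, where 15.7% and 13.8% of all genes were. The 11 were Cmpk2, Ddx58, Gbp5, Herc6, Ifi204, Ifi47, Ifih1, Irgm1, Rsad2, Rtp4 and Trim30a, and the 3 were Ifit3, Isg20 and Xaf1. With LPS 0 members were without overlap in either direction, where 5.91% of all genes had every KO value above and 7.82% below the WT. With LPS + Dex, where the shares of all genes were 8.93% above and 8.83% below, only Isg20, an antiviral exonuclease gene, did not overlap, at 1.78, 1.89 and 3.40 in the WT and 1.55, 1.46 and 1.75 in the KO. Its difference of -0.77 (SE 0.43, adjusted p = 0.576) log2 was not called.

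The median member difference, KO minus WT, was 0.35 log2 in untreated cells, -0.16 with LPS and -0.27 with LPS + Dex, and with LPS and LPS + Dex its sign differed between mouse letters. In the mice called A it was 0.64 untreated, 0.21 with LPS and 0.35 with LPS + Dex. In those called B it was 0.03, 0.48 and -0.10. In those called C it was -1.19 with LPS and -1.10 with LPS + Dex. With LPS 40 of 45 members were higher in the KO of letter A, 45 of 45 in that of letter B and 0 of 45 in that of letter C. The shares of all genes were 48.8%, 49.9% and 51.5%. A letter does not make the WT and KO animals a matched pair. Without both libraries of WT mouse C, a setting chosen after seeing the data, the median was 0.20 with LPS and 0.07 with LPS + Dex. Without the untreated library of WT mouse B, which leaves WT mouse A alone against the KO, the untreated median difference was 0.64. Without that of WT mouse A, which leaves WT mouse B alone, it was 0.04. For Isg15 the difference was -0.25 (SE 0.33, adjusted p = 0.889) untreated, -0.21 (SE 0.37, adjusted p = 0.962) with LPS and -0.42 (SE 0.36, adjusted p = 0.744) with LPS + Dex.

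**Figure D4:**
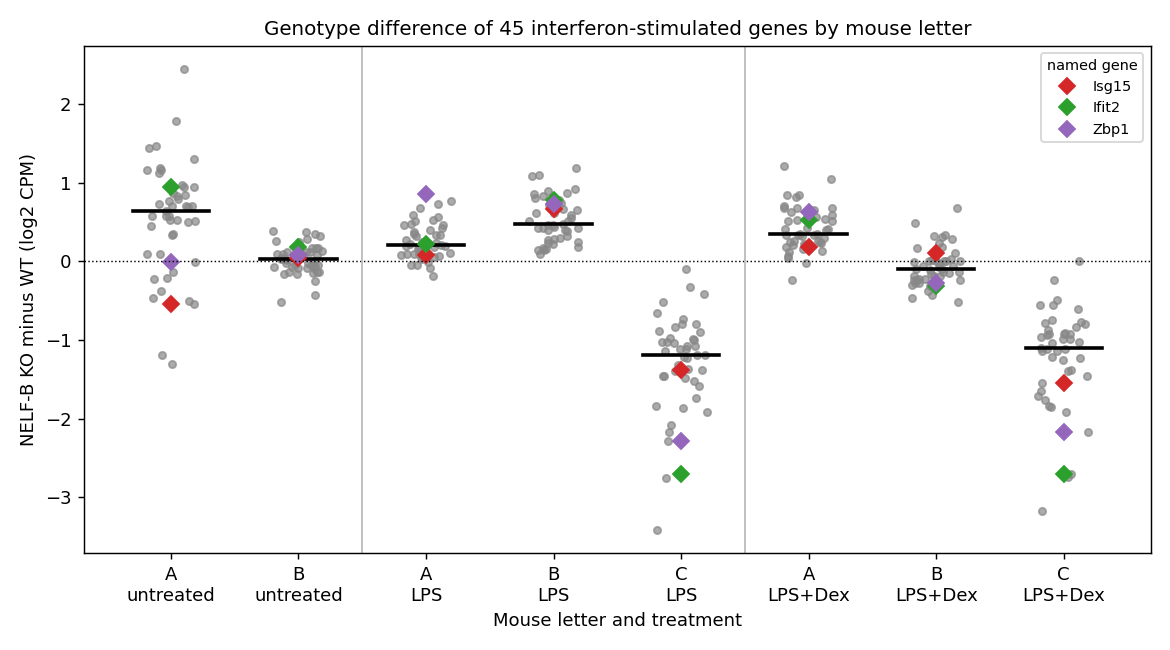
Points are the 45 ISGs, with NELF-B KO minus WT in log2 CPM on the y axis and the mouse letter and treatment on the x axis. Bars are medians over the members, and diamonds mark Isg15, Ifit2 and Zbp1. With LPS every member lies above 0 in letter B and below 0 in letter C.

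WT mouse C carried the highest level of most ISGs after LPS and after LPS + Dex. Its library was the highest of the 6 LPS libraries for 41 of 45 members, where that was so for 20.0% of all genes, and the highest of the 6 LPS + Dex libraries for 42 of 45, against 21.3% of all genes. It was above the mean of WT mice A and B for 45 of 45 members with LPS, by a median of 1.13 log2 (0.21 to 2.56), while the median of all genes was 0.002. With LPS + Dex the median was 1.08 log2 (0.19 to 2.44). With LPS 27 of 45 members exceeded that mean by over 1 log2 unit, as did 154 of all genes (1.6%), and the 27 members did so with LPS + Dex too. The largest differences were in Zbp1, a sensor of Z-form nucleic acids, at 3.61, 4.11 and 6.42 log2 CPM with LPS in mice A, B and C of the WT, and Ifi44, at 3.32, 3.87 and 6.06. The KO libraries with LPS were 4.47, 4.84 and 4.15 for Zbp1 and 3.74, 4.49 and 2.64 for Ifi44, all below WT mouse C. By class, the median excess of mouse C with LPS was 1.67 in antiviral effectors, 1.36 in the others, 1.18 in GTPases, 1.17 in sensors, 1.00 in nuclear body and STAT or IRF interacting genes and 0.81 in ISG15 and ubiquitin genes. Gbp5, with the largest LPS rise, had the smallest excess of the GTPases (0.36), and Trim25, a ubiquitin ligase of RIG-I signalling, the smallest of all members (0.21). The excess had a median of 1.09 in the 17 members with the ISRE core in the promoter and 1.18 in the 20 with a promoter but no such match.

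Of the interferon pathway genes in WT mouse C, Irf7, the amplifier of interferon production and itself an ISG, exceeded the mean of mice A and B by 2.21 log2 with LPS, Stat2 by 1.5 and Irf9 by 0.48. Ifnb1 exceeded it by 0.68 and Cxcl10 by 0.50, while Irf1, Ifnar1, Jak1, Tyk2 and Il1b differed by -0.12, -0.24, -0.17, -0.24 and -0.11. Ifnb1 with LPS was 4.93, 5.96 and 6.12 log2 CPM in the 3 WT mice in that order and 5.09, 6.76 and 5.02 in the KO mice, so WT mouse B was close to mouse C in Ifnb1 but not in most ISGs. Cd4, the listed T cell marker in the table, was 5.13, 5.85 and 3.13 log2 CPM in the LPS libraries of the WT and 2.71, 5.12 and 2.53 in those of the KO, and its part in the ISG levels was not tested. Because no untreated library of mouse C was analysed here, a higher ISG level before LPS and a larger response to LPS cannot be told apart in that mouse. Nor can the animal be told apart from its preparation. The lowest of the 6 LPS libraries was that of WT mouse A for 20 of 45 members and that of KO mouse C for 17.

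The genes that produce and transmit the interferon signal were taken as a list of 36, of which 35 were in the table. In the WT 9 of the 35 rose with LPS and 0 fell, and in the KO 8 rose and 0 fell, while 6 fell with Dex in each genotype and 0 rose. Over all genes the shares called were 6.01% and 3.08% higher with LPS in the WT and KO, and 2.17% and 2.55% lower with Dex. At the inducing end, Ifnb1 had 0 reads in 3 of the 4 untreated libraries and 1 read in that of WT mouse B, and reached 4.93 to 6.76 log2 CPM in the 6 LPS libraries. With Dex it fell to 3.65, 4.80 and 4.96 in the WT, a change of -1.20 (SE 0.07, adjusted p = 1.17e-07), and to 3.42, 4.87 and 3.58 in the KO, a change of -1.67 (SE 0.07, adjusted p = 6.07e-09). Cxcl10, a chemokine gene induced by LPS and by interferons, rose by 8.48 (SE 0.30, adjusted p = 7.93e-10) log2 in the WT and 7.73 (SE 0.30, adjusted p = 1.81e-09) in the KO and fell by 0.82 and 0.85 with Dex. Cd14, the LPS co-receptor, and Ticam1, which encodes TRIF, rose in both genotypes, with log2 changes of 1.47 and 1.17 in the WT. Ticam2, the bridging adaptor of TRIF, and Mb21d1, which encodes the DNA sensor cGAS, fell with Dex in both genotypes, by 0.57 and 0.42 log2 in the WT and by 0.61 and 0.74 in the KO. At the receiving end, Irf1 rose by 2.72 (SE 0.17, adjusted p = 1.68e-07) in the WT and 2.94 (SE 0.17, adjusted p = 6.58e-08) in the KO and fell with Dex, and Jak2 rose in the WT only by the thresholds (0.70 (SE 0.16, adjusted p = 0.0201) and 0.35 (SE 0.16, adjusted p = 0.572)), with an interaction of -0.35 (SE 0.23, adjusted p = 0.69). Stat2 and Irf9, which act together at the ISRE, had LPS changes of -0.32 and 0.17 in the WT and -0.68 and -0.14 in the KO, and were not called. The feedback genes Socs3, Nfkbia and Tnfaip3 rose in both genotypes, by 4.61, 3.34 and 5.25 log2 in the WT, and of these only Socs3 passed the Dex threshold. As references for the treatments, Il1b rose by 7.60 and 8.44 log2 with LPS in the WT and KO, and Fkbp5, Tsc22d3, Per1 and Dusp1, known targets of the glucocorticoid receptor, rose with Dex by 2.86, 3.80, 2.15 and 0.93 in the WT.

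In position, the members lie on several chromosomes in GENCODE vM21 (GRCm38), and some are neighbours. Ifit2, Ifit3 and Ifit1 follow each other on chromosome 19, from 34550694 to 34650009, Gbp5, Gbp7, Gbp3 and Gbp2 on chromosome 3, from 142493978 to 142638008, and Oasl2 and Oasl1 on chromosome 5. Rsad2 (26442746 to 26456452, minus strand) and Cmpk2 (26469204 to 26479837, plus strand) face away from each other on chromosome 12. Isg15 lies on chromosome 4 from 156199424 to 156200818 and Ifih1 on chromosome 2 from 62595798 to 62646255, and all the members named here encode proteins. Calls with LPS in the WT differed within these clusters, since Gbp2, Gbp3 and Gbp5 were called and Gbp7 was not, Oasl1 was called and Oasl2 was not, Ifit1 was called and Ifit2 and Ifit3 were not, and Rsad2 was called and Cmpk2 was not, with differences between neighbours not tested.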

How the data were processed

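RNA-seq libraries were made from polyA-enriched RNA of BMDM. The authors used CLC Bio Genomic Workbench to map paired reads to mm10 and took unique reads in exons as counts. The authors scaled these in edgeR by the trimmed mean of M values and deposited log2 CPM for 9614 genes. The filter that left these genes, and whether strand was used, are not given in the sources used here. The submitters' processing notes also name CASAVA 1.8 and FastQC. The table also holds deposited p-value and FDR columns from the authors' pairwise edgeR tests, and these were not used. The 45 members and the lists of roles, pathway genes and markers were chosen with earlier results of these data known.

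Samples were grouped by genotype and treatment from the labels, and mouse numbers in the labels pair libraries of an animal. Deviations from group means correlated across genes with r = 0.92 in the WT and 0.88 in the KO between LPS and LPS + Dex, and 0.45 and 0.87 between untreated and LPS. Models were fitted over all 9614 genes to log2 CPM with lmFit and eBayes (trend) in limma 3.58.1 under R 4.3.3, with no pseudocount and no further filter, in place of the count test, since the values are on a log2 scale. LPS was tested in a fit of all 16 libraries with no term for the mouse, so libraries of the same animal counted as independent there. Dex was tested over the 12 LPS and LPS + Dex libraries with the mouse as a block, and KO against WT within each treatment. Benjamini-Hochberg adjustment ran over 9614 genes, and all adjusted p-values are limma's. A call for LPS required 1.5-fold and an FDR below 0.1, for Dex 1.3-fold and 0.1, for KO against WT 1.5-fold and 0.05, and for interactions an FDR below 0.1.

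Depth was recovered from the deposited steps of low values. With a tolerance of 0.1 read, 100.0% of values under 3 CPM were whole reads in every library. Floors cover counting error only. Because PCR copies were not told apart, reads are not independent molecules. The fits were tested on simulated data that held no effect of the mouse, with 200 genes changed. For KO against WT, 0.0% of 2-fold changes were recovered untreated and 49.0% with LPS. At 4-fold the shares were 75.5% and 88.0%. For the WT, 71.5% of 2-fold changes were recovered with LPS and 60.0% with Dex. Genes given in every library were those called with LPS or Dex and the highest and lowest untreated members. The rule for genotype differences asked for members called, or without overlap in both LPS and LPS + Dex, and named none, so Isg20, Zbp1, Ifi44, Bst2, Igtp and Gbp7 were named after their values were seen. The values of 1 pathway gene are not reported here. Positions and lengths are from GENCODE vM21 and promoters from RefSeq. Other steps used Python 3.11.15, numpy 2.4.6, pandas 2.3.3 and matplotlib 3.10.9. Alternatives were log2(CPM + 1), a filter on mean log2 CPM above 1, median centring, voom on recovered reads, blocks and fits of other libraries, unadjusted thresholds and leaving out each library.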

Additional observations from a re-analysis of the deposited data

How the results depend on the processing

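Of the counts and medians recomputed under alternatives, 27 moved, a count by more than 1.5 times or a median by more than the SD between mice, and 394 did not. That SD is wide, so medians within it still shifted. Members higher with LPS in the WT numbered 8, or 5 with mice A and B only and 5 to 20 when a library was left out, the highest without the untreated library of WT mouse B. Members lower there numbered 0, or 2 with the replicate block and 0 to 2 when a library was left out. In the KO 5 were higher with LPS, 8 with the replicate block, 8 with mice A and B only and 2 to 6 when a library was left out. Without both libraries of WT mouse C the count was 7. The median LPS change in the WT was 0.58, or 0.21 with the replicate block, 0.18 with mice A and B only, 0.18 without both libraries of WT mouse C and 0.18 to 0.90 when a library was left out. Members lower with Dex in the WT numbered 1, or 0 without the replicate block, 0 with all 16 libraries and the block and 1 to 3 when a library was left out. In the KO 7 were lower, or 0 without the replicate block, 1 with all 16 libraries and the block and 1 to 9 when a library was left out, which also gave 0 to 2 higher. When a library was left out the median KO minus WT difference ran from 0.04 to 0.64 untreated, from -0.37 to 0.20 with LPS and from -0.50 to 0.07 with LPS + Dex. In untreated cells 0 to 22 members were higher and 0 to 3 lower in the KO when a library was left out, the LPS interaction had 0 to 8 members and the Dex interaction 0 to 1. For the named genes, only changes called in the main fits were followed under alternatives. Of these values 409 stayed called, 42 fell short of the threshold and none turned sign. Changes not called in the main fits were not scored. The cause of these changes was not tested. Groups of 2 or 3 libraries limit every comparison.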

Other observations

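Beside the members, the LPS library of WT mouse C held other genes far above the mean of WT mice A and B, since 27 of the 154 genes that exceeded it by over 1 log2 unit are on the list. The largest differences among the others, named after their values were seen, were in Scand1 (4.96 log2), Gm26917 (3.29), Slfn4 (3.24), Slfn1 (2.80) and Gm4955 (2.75). Slfn4 and Slfn1 are Schlafen genes known to respond to interferon, and were also higher in that mouse with LPS + Dex, by 3.48 and 2.33.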
